A study of Homo sapiens with 18 samples.

Results

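The 35 genes described here encode proteins of the lysosome and of autophagy. They were taken by gene symbol from a table of read counts that lists 60623 genes, after 45 copies of genes shared by the X and Y chromosomes were left out. Each symbol matched 1 row, and all 35 passed the filter on low counts that left 18151 genes to test. The counts come from poly(A) RNA of IMR90 cells, wild-type primary fibroblasts from human lung, in 6 groups of 3 libraries. IR_RG7388, IR_HDM201 and IR_DMSO cells were made senescent by ionizing radiation. Prolif_RG7388, Prolif_HDM201 and Prolif_DMSO cells were left to proliferate. RG7388 (idasanutlin) and HDM201 (siremadlin) inhibit MDM2, a ubiquitin ligase that keeps p53 low, and DMSO is their solvent. For irradiated cells, treatment began on day 4 and lasted 7 days, up to collection on day 11. The compounds were given at different doses, so their values are set side by side and not compared with each other. All groups are 1 cell line, and nothing in the labels says that the 3 libraries of a group came from separate cultures, so p-values cover the spread between these libraries only.

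The lysosome is the acid compartment where cells break down material taken up from outside or delivered from within. Hydrolases made in the endoplasmic reticulum are carried there, a proton pump (the V-ATPase) acidifies it, and glycoproteins such as LAMP1 and LAMP2 line its membrane. In autophagy, a membrane started by kinases and lipid-binding proteins closes around cytoplasm, is coated with lipidated LC3 and GABARAP proteins, takes up cargo through receptors such as SQSTM1, and fuses with the lysosome. The transcription factors TFEB and TFE3 switch on many of these genes through short promoter elements built on the letters CACGTG. An enlarged lysosomal compartment is a known trait of senescent fibroblasts. Their beta-galactosidase staining comes from the lysosomal enzyme encoded by GLB1.

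Because TFEB and TFE3 are members, the members' promoters were searched for the letters CACGTG and for the longer TCACGTGA, which holds CACGTG within it. Both read the same on either strand. A promoter is the 300-base RefSeq window (GRCh38.p14) from 250 bases before to 50 bases after a gene's start, and 27 members had at least 1 such window. Of these 27 members, 7 (25.9%) held CACGTG, against 8.77% of all 27305 genes with a window. The longer TCACGTGA stood in 5 of the 27 members (18.5%), against 1.18% of all genes. Elements built on these letters were already known from many genes of these pathways, so the shares are a description and not a test. The 7 stretches are shown because they are the members' own copies of this element, from 20 bases before the first match to 20 after the last, 5′ to 3′ on the gene's strand, with matches to CACGTG or TCACGTGA in capitals. LAMP1, the lysosomal membrane glycoprotein, had 6 matches (chr13:113297027-113297263, plus strand). GAA, the acid glucosidase that degrades glycogen, had 2 (chr17:80101485-80101575, plus strand), and MCOLN1, the lysosomal calcium channel, had 2 (chr19:7522563-7522635, plus strand). CTSA, a serine carboxypeptidase that also shields beta-galactosidase, had 2 (chr20:45891273-45891335, plus strand). ATP6V0D1, a V-ATPase subunit, had 1 (chr16:67481191-67481236, minus strand), as did CTSD, an aspartic protease (chr11:1763949-1763994, minus strand), and NEU1, a sialidase (chr6:31862922-31862967, minus strand).
LAMP1: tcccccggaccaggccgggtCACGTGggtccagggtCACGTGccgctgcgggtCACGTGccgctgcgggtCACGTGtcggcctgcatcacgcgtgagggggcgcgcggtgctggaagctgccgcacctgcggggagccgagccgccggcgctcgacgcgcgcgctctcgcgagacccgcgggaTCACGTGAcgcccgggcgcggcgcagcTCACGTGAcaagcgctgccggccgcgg
GAA: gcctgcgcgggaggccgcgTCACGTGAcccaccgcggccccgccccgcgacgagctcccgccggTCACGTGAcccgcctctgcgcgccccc
MCOLN1: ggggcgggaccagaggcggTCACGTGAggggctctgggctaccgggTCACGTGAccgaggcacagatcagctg
CTSA: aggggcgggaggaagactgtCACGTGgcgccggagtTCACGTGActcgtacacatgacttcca
ATP6V0D1: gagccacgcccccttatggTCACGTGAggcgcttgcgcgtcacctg
CTSD: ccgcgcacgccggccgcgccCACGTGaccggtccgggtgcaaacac
NEU1: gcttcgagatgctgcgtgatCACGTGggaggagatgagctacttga
These matches describe letters in a window and do not show that a factor binds there.

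Levels in the text are CPM, counts relative to the size of the library, with sizes adjusted between libraries by TMM (trimmed mean of M values). Differences are given as log2 fold changes ± standard error (SE), and a gene was called where the p from edgeR's quasi-likelihood test, adjusted over the 18151 genes by the Benjamini-Hochberg method, was under 0.05. Libraries held 21609198 to 66647700 counts. The states of the DMSO groups matched their labels. The proliferation marker MKI67 had a mean of 28.9 CPM in IR_DMSO against 505.8 CPM in Prolif_DMSO, and the p53 target CDKN1A 1818 against 231 CPM. MKI67 had 463, 210 and 421 CPM in Prolif_RG7388 and 271, 253 and 508 CPM in Prolif_HDM201 libraries, and neither change from Prolif_DMSO was called. CDKN1A was called higher in both of these groups, at means of 748 and 627 CPM. The part of these differences in the results that use Prolif_RG7388 and Prolif_HDM201 was not tested. The 10 fibroblast markers summed to 17446 to 25624 CPM in IR_DMSO against 44381 to 50111 CPM in Prolif_DMSO libraries, the 8 epithelial markers, 2 of them under 1 CPM in every library, to 160 to 177 against 277 to 295 CPM, and the 8 endothelial markers, 6 of them under 1 CPM, to 118 to 138 against 83.9 to 90.8 CPM. The part of these shifts in the results on irradiation was not tested. Of the 11 leukocyte markers, 9 stayed under 1 CPM in every library, among them PTPRC and TYROBP at or below 0.395 and 0.032 CPM, and the other 2 were CD14 and CSF1R. Prolif_HDM201 replicate 3 and IR_DMSO replicate 1 stood apart, with mean correlations to their own group of 0.977 and 0.979, the lowest of the 18. Results that rest on them are also given without them. Bulk libraries measure shares of RNA, so a change in RNA per cell and a change in the number of cells that make it cannot be told apart.

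Irradiation raised most of the lysosomal and autophagy genes in cells given DMSO. Of the 35 members, 22 rose and 4 fell, against 26.3% of all genes tested that rose and 25.3% that fell. The members' median log2 fold change was 0.41, and that of all genes was 0.05. Together the 35 genes took 0.617% to 0.659% of the counts in IR_DMSO libraries, against 0.393% to 0.413% in Prolif_DMSO libraries. FUCA1, CTSS, ASAH1, GABARAPL1, SQSTM1, MAP1LC3B, WIPI1 and NPC1 rose 2-fold or more, and no member fell that far. Scaling by library totals alone, which moved the median of all genes to 0.34, gave 26 members higher and 1 lower, against 39.7% and 15.8% of all genes, so the falls of TFEB, ULK1 and ATG9A rest on the TMM scale and only that of GUSB was called on both. Without IR_DMSO replicate 1, 19 members rose and 5 fell, where 48.2% of all genes were called in either direction. Without it and Prolif_HDM201 replicate 3, 23 rose and 6 fell, where 55.8% of all genes were called.

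FUCA1 encodes the lysosomal alpha-fucosidase and is a known p53 target. It lies on hg38 chromosome 1, 23845077 to 23868290, minus strand. It was the least abundant member per length in 4 of the 6 groups. FUCA1 had 4.04, 5.94 and 4.04 CPM in IR_DMSO libraries, against 0.417, 0.431 and 0.683 CPM in Prolif_DMSO libraries. Every irradiated library was above every proliferating one, and the log2 fold change was 3.20 ± 0.26 (adjusted p = 4.62e-10). Among the other glycosidases, HEXA, a chain of beta-hexosaminidase, rose by a log2 fold change of 0.59 ± 0.10. NEU1 rose by 0.31 ± 0.12 and GAA by 0.26 ± 0.11, calls that were lost in 5 and 6 of the 6 fits without 1 library. GUSB, the beta-glucuronidase, went the other way (hg38 chromosome 7, 65960684 to 65982215, minus strand). It had 23.8, 22.6 and 25.6 CPM in IR_DMSO libraries, against 38.9, 44.1 and 41.5 CPM in Prolif_DMSO libraries, with no overlap and a log2 fold change of -0.79 ± 0.12.

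GLB1, the source of senescence-associated beta-galactosidase activity, was not called (hg38 chromosome 3, 32996609 to 33097202, minus strand). It had 62.6, 73.4 and 77.8 CPM in IR_DMSO libraries, against 68.0, 77.4 and 70.4 CPM in Prolif_DMSO libraries, and the groups overlapped. The log2 fold change was -0.013 ± 0.12 (adjusted p = 0.934). This value turned with the scale: by library totals alone it was 0.28 (adjusted p = 0.0137), and in limma on log2(FPKM + 1) it was 0.60 (adjusted p = 0.00155). FPKM are the authors' deposited fragment values, scaled for depth and transcript length. No direction is therefore given for the GLB1 transcript.

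The proteases rose more often than not. CTSS, cathepsin S, a cysteine protease of the endocytic pathway, changed most among them (hg38 chromosome 1, 150730079 to 150765957, minus strand). CTSS had 15, 10.8 and 9.27 CPM in IR_DMSO libraries, against 1.61, 1.21 and 1.53 CPM in Prolif_DMSO libraries, which do not overlap. Its log2 fold change was 2.98 ± 0.25 (adjusted p = 1.03e-09). CTSS is abundant in leukocytes, and the 11 leukocyte markers summed to 2.10 to 2.51 CPM in IR_DMSO libraries, against 1.23 to 2.36 CPM in Prolif_DMSO libraries. CD14, a monocyte receptor that was the only leukocyte marker called here, had 1.28, 0.621 and 0.835 CPM in IR_DMSO libraries, against 0.124, 0.086 and 0.109 CPM in Prolif_DMSO libraries, a log2 fold change of 3.01 ± 0.64. CSF1R and FCER1G, the other leukocyte markers that passed the filter, were not called, at -0.78 ± 0.41 and -0.47 ± 0.69. The part of these markers in the CTSS result was not tested. CTSK, cathepsin K, a collagen-degrading protease, lies on hg38 chromosome 1, 150794880 to 150809577, minus strand. CTSK had 53.7, 52.8 and 48.0 CPM in IR_DMSO libraries, against 36.6, 39.8 and 39.8 CPM in Prolif_DMSO libraries, a log2 fold change of 0.41 ± 0.11. CTSD rose by 0.90 ± 0.12, CTSL, cathepsin L, by 0.56 ± 0.12, and CTSZ, cathepsin Z, by 0.44 ± 0.10. CTSA, CTSB (cathepsin B) and TPP1, a tripeptidyl peptidase, were not called. Per transcript length CTSB was the most abundant member in all 6 groups, with 565 ± 77.2 FPKM in IR_DMSO and 554 ± 20.4 FPKM in Prolif_DMSO (SD, n = 3 each). FUCA1 had 2.37 ± 0.586 FPKM in IR_DMSO and 0.198 ± 0.0558 FPKM in Prolif_DMSO and ranked last in these groups and in both proliferating compound groups, whereas CTSS ranked last in IR_RG7388 and IR_HDM201.

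All 4 members that handle lipids rose. ASAH1, acid ceramidase, had 104, 93.1 and 84.5 CPM in IR_DMSO libraries, against 27.4, 24.7 and 28.2 CPM in Prolif_DMSO libraries. The groups were far apart, with a log2 fold change of 1.81 ± 0.16 (adjusted p = 5.77e-09). NPC1 carries cholesterol out through the lysosomal membrane (hg38 chromosome 18, 23506184 to 23586506, minus strand). NPC1 had 58.6, 68.4 and 71.0 CPM in IR_DMSO libraries, against 33.2, 30.8 and 34.2 CPM in Prolif_DMSO libraries, without overlap and with a log2 fold change of 1.01 ± 0.11. NPC2, which hands cholesterol to NPC1, rose by 0.69 ± 0.10, and PSAP, the precursor of the saposins that help degrade sphingolipids, by 0.56 ± 0.11.

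Membrane proteins changed little. LAMP1 (hg38 chromosome 13, 113297239 to 113323672, plus strand) had 222, 302 and 312 CPM in IR_DMSO libraries, against 328, 341 and 322 CPM in Prolif_DMSO libraries. All irradiated libraries were below the proliferating ones, replicate 1 by most, but the log2 fold change of -0.25 ± 0.12 was not called (adjusted p = 0.0828) and was 0.041 by library totals alone. LAMP2 rose by 0.41 ± 0.14, a call lost in 4 of the 6 fits without 1 library, and MCOLN1 was not called. The V-ATPase genes ATP6V0D1 and ATP6V1H rose by 0.53 ± 0.11 and 0.58 ± 0.11, and the accessory subunit ATP6AP1 was not called. TFEB itself was low (hg38 chromosome 6, 41683978 to 41736259, minus strand). It had 4.12, 4.97 and 4.88 CPM in IR_DMSO libraries, against 6.44, 6.03 and 6.91 CPM in Prolif_DMSO libraries, a log2 fold change of -0.48 ± 0.15 (adjusted p = 0.0114) that was lost without Prolif_DMSO replicate 3 (adjusted p = 0.0519). TFE3 was not called.

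In the autophagy pathway, the cargo receptor SQSTM1 and the LC3-like genes rose. SQSTM1, also called p62 (hg38 chromosome 5, 179806398 to 179838078, plus strand), had 721, 519.6 and 509 CPM in IR_DMSO libraries, against 191, 212 and 196 CPM in Prolif_DMSO libraries. Replicate 1 was the highest of the irradiated libraries, and the log2 fold change was 1.54 ± 0.13 (adjusted p = 6.91e-10). GABARAPL1, a ubiquitin-like protein of the autophagosome membrane, lies on hg38 chromosome 12, 10212458 to 10223128, plus strand. GABARAPL1 had 261, 245 and 238 CPM in IR_DMSO libraries, against 69.1, 72.2 and 71.1 CPM in Prolif_DMSO libraries, a log2 fold change of 1.81 ± 0.09 (adjusted p = 1.88e-13). MAP1LC3B, the LC3 protein most used to mark autophagosomes, lies on hg38 chromosome 16, 87383953 to 87404779, plus strand. MAP1LC3B had 237, 217 and 209 CPM in IR_DMSO libraries, against 100.5, 104 and 105 CPM in Prolif_DMSO libraries, a log2 fold change of 1.10 ± 0.09. None of these 3 genes overlapped between the groups. WIPI1, which binds the lipid that marks the forming membrane (hg38 chromosome 17, 68420948 to 68457513, minus strand), had 72.1, 95.0 and 94.7 CPM in IR_DMSO libraries, against 39.6, 43.8 and 40.3 CPM in Prolif_DMSO libraries, a log2 fold change of 1.08 ± 0.12. Among the genes that start autophagy, BECN1, of the lipid kinase complex, rose by 0.57 ± 0.10, while the kinase gene ULK1 changed by -0.43 ± 0.12 and ATG9A, a lipid scramblase of the vesicles that seed the membrane, by -0.44 ± 0.12. ATG7, the activating enzyme of LC3 conjugation, rose by 0.26 ± 0.11, a call lost in all 6 fits without 1 library, and ATG5, also of the conjugation machinery, was not called.

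Some members share exonic bases with other genes, so their reads are uncertain. In GENCODE release 44, ATG9A shares 38.8% of its exonic bases with another protein-coding gene on its own strand, and its change became 0.086 in limma on log2(FPKM + 1), where it was not called. CTSD shares 27.3% with genes on its own strand. With genes on the opposite strand CTSZ shares 31.7%, WIPI1 28.1%, CTSD 23.4%, SQSTM1 22.4% and CTSA 21.5%, which matters if counting ignored strand, a setting the sources used here do not state.

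**Figure D1:**
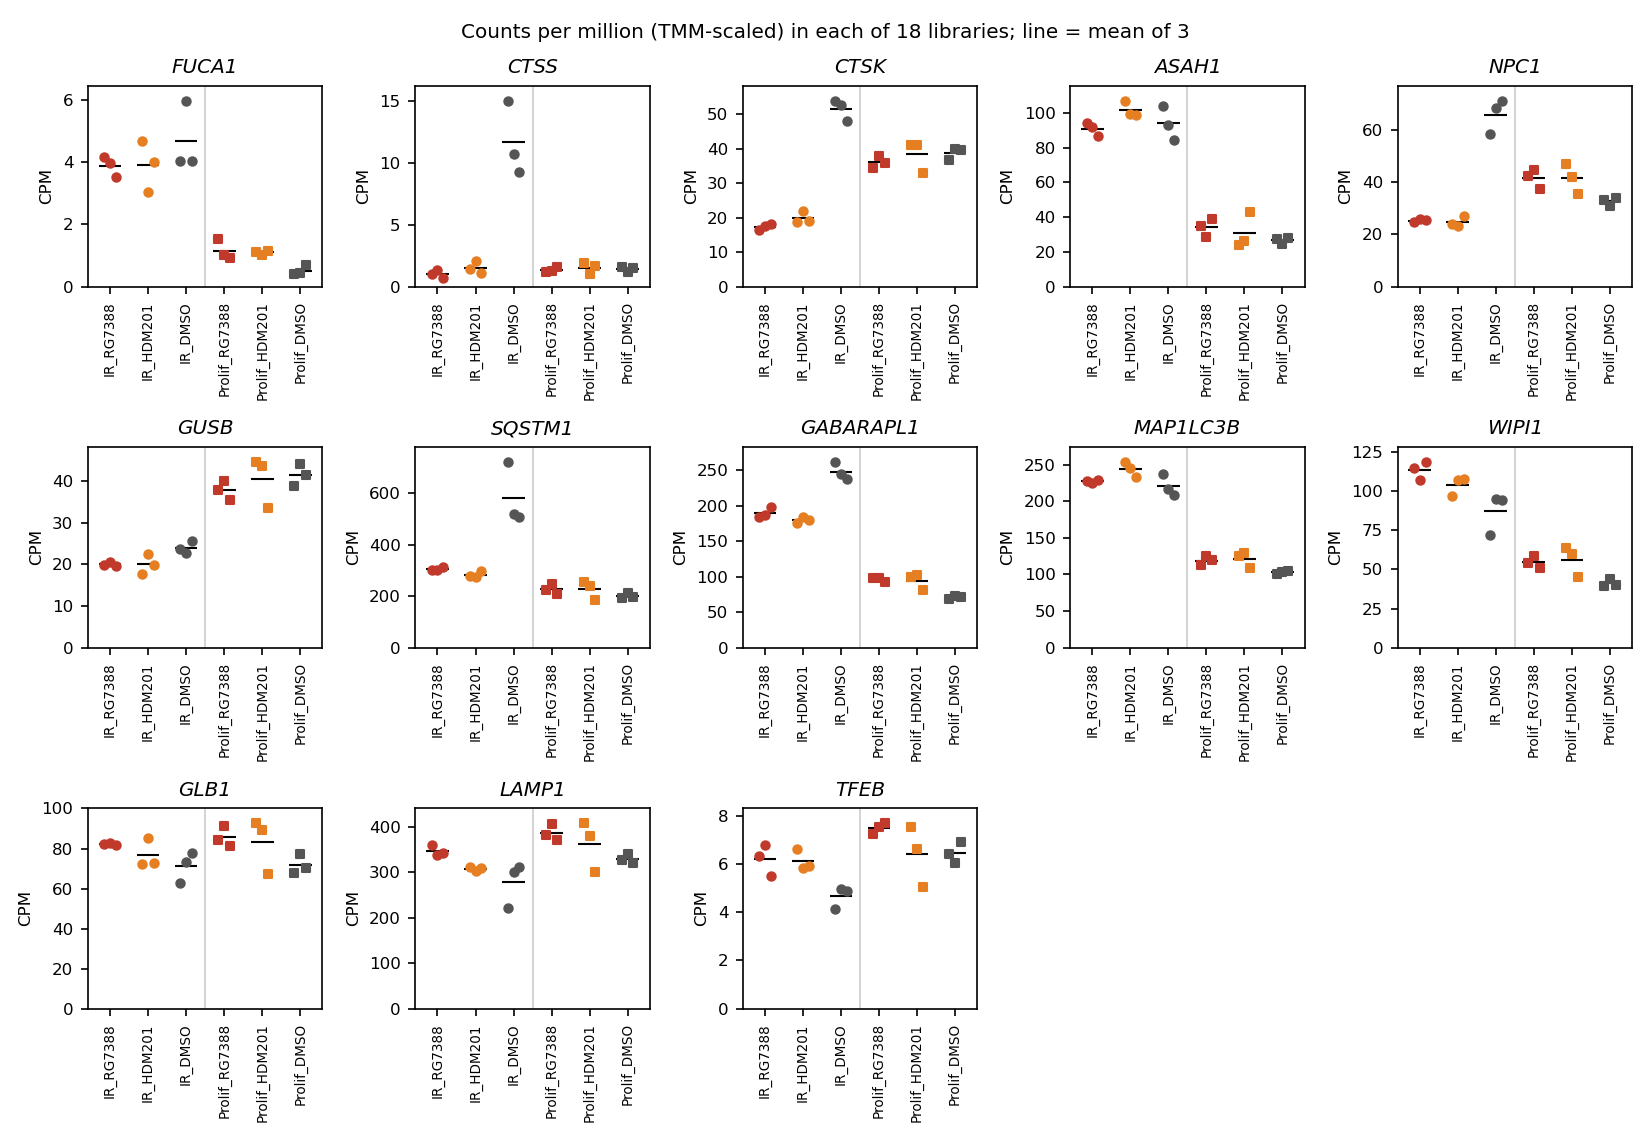
Levels of 13 members in each of the 18 libraries, in TMM-scaled CPM on a linear axis from 0. Each point is 1 library and each line the mean of 3 libraries, circles are irradiated and squares proliferating groups, and each compound group stands left of its DMSO group. CTSS is high only in IR_DMSO, with 9.27 to 15 CPM, whereas FUCA1, ASAH1, MAP1LC3B and WIPI1 are high in all 3 irradiated groups.

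A further 136 genes of the same pathways, listed by hand, were examined beside the members, and 135 of them passed the filter. On irradiation in DMSO, 80 rose and 14 fell, against 26.3% and 25.3% of all genes. The median log2 fold change was 0.42, against 0.05 for all genes. The proton pump genes of this list rose in 13 of 15 cases and the glycosidases in 12 of 16, against 26.3% of all genes. The smallest p belonged to DRAM1, a lysosomal membrane protein induced by p53, at 1.98 ± 0.09, followed by TP53INP1, a p53 target that binds LC3, at 1.81 ± 0.11, and NBR1, a cargo receptor, at 1.14 ± 0.09. Among those that fell, PPT1, a palmitoyl-protein thioesterase, changed by -0.99 ± 0.10 and TCIRG1, a V-ATPase subunit, by -0.49 ± 0.11.

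The irradiation effect was also measured between the groups given RG7388 and between those given HDM201, which share no library with the DMSO groups. Between IR_RG7388 and Prolif_RG7388, 13 members rose and 6 fell, against 21.3% and 22.8% of all genes, with medians of 0.14 for the members and 0.03 for all genes. Between IR_HDM201 and Prolif_HDM201, 13 members rose and 6 fell, against 22.7% and 23.8% of all genes, with medians of 0.11 and 0.01. Scaling by library totals alone gave 18 higher and 4 lower in each of these comparisons, against 28.8% and 17.8% of all genes with RG7388 and 29% and 19.2% with HDM201. Without Prolif_HDM201 replicate 3 the HDM201 comparison had 10 members higher and 10 lower, where 48.8% of all genes were called in either direction. Without that library and IR_DMSO replicate 1, whose removal changes the spread shared by all groups, it had 10 higher and 12 lower, and the RG7388 comparison had 17 higher and 11 lower. In that fit 53.3% of all genes were called with HDM201 and 52.2% with RG7388.

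In all 3 settings 13 members rose, against 14.2% of all genes, and 3 fell, against 17% of all genes. The 13 that rose in each were HEXA, FUCA1, CTSD, CTSZ, ASAH1, NPC2, LAMP2, ATP6V0D1, ATP6V1H, WIPI1, MAP1LC3B, GABARAPL1 and SQSTM1. The 3 that fell in each were GUSB, ULK1 and ATG9A. GLB1, CTSA, TPP1, LAMP1, MCOLN1, ATP6AP1, TFE3 and ATG5 were called in none. The remaining 11 members were called in 1 or 2 settings or in opposite directions. PSAP, CTSL, CTSS, BECN1, NEU1, GAA, ATG7 and TFEB were called with DMSO alone, and CTSB only with the compounds, where it changed by -0.59 ± 0.10 with RG7388 and -0.63 ± 0.10 with HDM201 on the log2 scale. Some of the calls shared by all 3 settings were weak. With RG7388, those of CTSZ, ATP6V1H and ATG9A were lost in all 6 fits without 1 library, that of LAMP2 in 4, and that of ULK1 without IR_RG7388 replicate 3. With HDM201, the CTSD call was lost in 5 of these fits, the CTSZ call in 3, the ATG9A call without Prolif_HDM201 replicate 1 or IR_HDM201 replicate 2, and the ULK1 call without Prolif_HDM201 replicate 1.

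ASAH1, NPC2, MAP1LC3B and WIPI1 rose on irradiation with either compound as well. ASAH1 had 94.0, 92.0 and 86.4 CPM in IR_RG7388 libraries, against 35.0, 28.6 and 38.7 CPM in Prolif_RG7388 libraries, a log2 fold change of 1.41 ± 0.16. With HDM201 ASAH1 had 106, 99.1 and 98.7 CPM in IR_HDM201 libraries, against 23.8, 26.2 and 43.0 CPM in Prolif_HDM201 libraries, a log2 fold change of 1.70 ± 0.16. The irradiated and proliferating libraries did not overlap with either compound. MAP1LC3B had 227, 224 and 229 CPM in IR_RG7388 libraries, against 112, 125 and 119.8 CPM in Prolif_RG7388 libraries. It had 253, 246 and 234 CPM in IR_HDM201 libraries, against 125, 129.9 and 109 CPM in Prolif_HDM201 libraries. These are log2 fold changes of 0.93 ± 0.09 with RG7388 and 1.01 ± 0.09 with HDM201. WIPI1 rose by 1.06 ± 0.12 and 0.89 ± 0.12, and NPC2 by 0.83 ± 0.10 and 0.81 ± 0.10, in the same order. GUSB changed by -0.92 ± 0.12 and -1.02 ± 0.12.

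Among the other members called in all 3 settings, FUCA1 rose by 1.76 ± 0.24 with RG7388 and 1.84 ± 0.24 with HDM201. GABARAPL1 rose by 0.98 ± 0.09 and 0.93 ± 0.09, HEXA by 0.42 ± 0.10 and 0.40 ± 0.10, CTSD by 0.47 ± 0.11 and 0.30 ± 0.11, and CTSZ by 0.26 ± 0.10 and 0.28 ± 0.10, each with RG7388 and then HDM201. In the same order, LAMP2 rose by 0.38 ± 0.14 and 0.69 ± 0.14, ATP6V0D1 by 0.55 ± 0.11 and 0.48 ± 0.11, and ATP6V1H by 0.31 ± 0.11 and 0.38 ± 0.11. ULK1 changed by -0.36 ± 0.12 and -0.40 ± 0.12, and ATG9A by -0.31 ± 0.12 and -0.39 ± 0.12.

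Other members lost their rise or turned. NPC1 had 24.6, 25.8 and 25.4 CPM in IR_RG7388 libraries, against 42.6, 44.7 and 37.5 CPM in Prolif_RG7388 libraries. It had 23.8, 23.4 and 27.1 CPM in IR_HDM201 libraries, against 47.1, 41.9 and 35.4 CPM in Prolif_HDM201 libraries. NPC1 was thus called lower on irradiation with RG7388 (-0.72 ± 0.12) and with HDM201 (-0.74 ± 0.12), having been called higher with DMSO. CTSK did the same, at -1.06 ± 0.11 with RG7388 and -0.95 ± 0.11 with HDM201. CTSS was not called with RG7388 (adjusted p = 0.265) or with HDM201 (adjusted p = 0.943). SQSTM1 rose by 0.43 ± 0.13 with RG7388 and by 0.32 ± 0.13 with HDM201, the second lost in 4 of the 6 fits without 1 library.

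**Figure D2:**
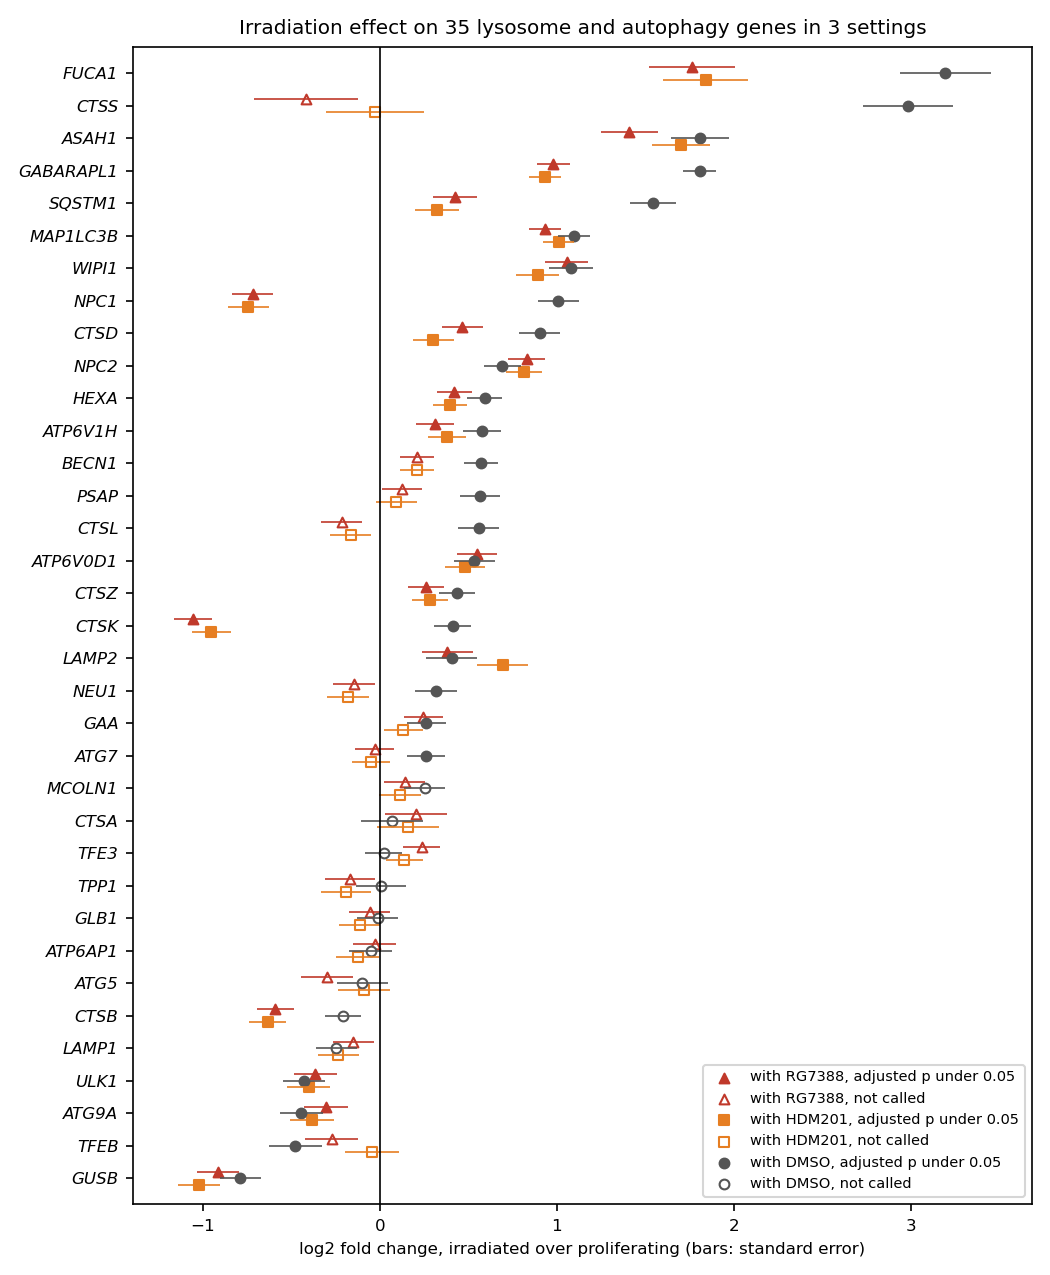
Log2 fold changes of irradiated over proliferating cells for all 35 members, in cells given RG7388 (triangles), HDM201 (squares) or DMSO (circles), with standard errors. Filled symbols passed an adjusted p under 0.05. Most genes at the top of the plot lie to the right of 0 in all 3 settings, whereas CTSK and NPC1 lie to the right with DMSO and to the left with either compound.

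Of the 135 further genes, 67 rose and 16 fell on irradiation with RG7388, against 21.3% and 22.8% of all genes. With HDM201 74 rose and 14 fell, against 22.7% and 23.8%. ATP6V1G1, a V-ATPase subunit, had the smallest p among those that rose, at 0.95 ± 0.09 with RG7388 and 1.2 ± 0.09 with HDM201. SLC17A5, the lysosomal sialic acid exporter, rose by 1.09 ± 0.11 and 1.33 ± 0.11, and NBR1 by 0.82 ± 0.09 with RG7388. PPT1 changed by -1.24 ± 0.11 and -1.30 ± 0.11, and SESN2, a stress-induced inhibitor of mTORC1, by -0.66 ± 0.12 and -0.75 ± 0.12. TCIRG1 changed by -0.54 ± 0.11 with RG7388.

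Within irradiated cells, the MDM2 inhibitors changed a small set of members, in both directions, but only falls were called in every setting tried. The members' median log2 fold change was 0.008 with RG7388 and 0.007 with HDM201, against -0.035 and -0.023 for all genes. With RG7388, 4 members rose and 6 fell, against 10.9% and 11.9% of all genes. With HDM201, 1 rose and 8 fell, against 9.96% and 11.3% of all genes. Both compounds were set against the same IR_DMSO libraries. The epithelial markers summed to 368 to 428 CPM in IR_RG7388 and 291 to 408 CPM in IR_HDM201 libraries, against 160 to 177 CPM in IR_DMSO libraries. Of them, the keratin genes KRT8, KRT18 and KRT19 were called higher with each compound. EPCAM (-0.64 and -0.34 with RG7388 and HDM201), CLDN4 (-0.31 and -0.35) and MUC1 (-0.01 and -0.16) were below 0 and not called. The part of the epithelial markers in these results was not tested. By library totals alone, which also lowered the median of all genes to -0.22 and -0.17, these counts were 0 higher and 11 lower with RG7388, against 5.23% and 20.6% of all genes, and 0 higher and 14 lower with HDM201, against 5.37% and 18.5%. CTSS, CTSK, CTSL, NPC1, GABARAPL1 and SQSTM1 fell with each compound. Without IR_DMSO replicate 1, 1 member rose and 6 fell with RG7388, where 18.04% of all genes were called in either direction. With HDM201 0 rose and 5 fell in this fit, where 17.78% of all genes were called. Without IR_DMSO replicate 1 and Prolif_HDM201 replicate 3, 6 rose and 6 fell with RG7388, where 26.99% of all genes were called. With HDM201 4 rose and 8 fell in that fit, where 26.88% of all genes were called.

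CTSS had 1.03, 1.33 and 0.70 CPM in IR_RG7388 and 1.43, 2.06 and 1.11 CPM in IR_HDM201 libraries, against 15, 10.8 and 9.27 CPM in IR_DMSO libraries. No treated library came near the DMSO libraries, and all of them lay between 0.70 and 2.06 CPM, a range that overlaps that of Prolif_DMSO. The log2 fold changes were -3.53 ± 0.26 with RG7388 (adjusted p = 7e-10) and -2.94 ± 0.26 with HDM201 (adjusted p = 1.29e-08). The leukocyte markers summed to 1.24 to 1.48 CPM in IR_RG7388 and 1.05 to 1.47 CPM in IR_HDM201 libraries, against 2.10 to 2.51 CPM in IR_DMSO libraries, and CSF1R, a macrophage receptor, was called lower with RG7388 (-2.27 ± 0.49) and HDM201 (-1.36 ± 0.48). CD14 (-0.48 ± 0.53 with RG7388 and -0.99 ± 0.56 with HDM201) and FCER1G (0.14 ± 0.70 and -0.98 ± 0.80) were not called. The part of the leukocyte markers in this result was not tested. CTSK had 16.5, 17.5 and 18.1 CPM in IR_RG7388 and 18.7, 22 and 19.0 CPM in IR_HDM201 libraries, against 53.7, 52.8 and 48.0 CPM in IR_DMSO libraries. These did not overlap either, and the levels with the compounds were below those of every proliferating library. The log2 fold changes of CTSK were -1.57 ± 0.11 with RG7388 and -1.38 ± 0.11 with HDM201. CTSL changed by -0.56 ± 0.12 and -0.46 ± 0.12 in the same order, the second lost without IR_DMSO replicate 1.

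NPC1 had 24.6, 25.8 and 25.4 CPM in IR_RG7388 and 23.8, 23.4 and 27.1 CPM in IR_HDM201 libraries, against 58.6, 68.4 and 71.0 CPM in IR_DMSO libraries. With either compound NPC1 was below its level in every other group, and the log2 fold changes were -1.39 ± 0.12 and -1.42 ± 0.12 with RG7388 and HDM201. SQSTM1 had 302, 301 and 313 CPM in IR_RG7388 and 278, 276 and 298 CPM in IR_HDM201 libraries, against 721, 519.6 and 509 CPM in IR_DMSO libraries. The log2 fold changes of SQSTM1 were -0.93 ± 0.13 with RG7388 and -1.04 ± 0.13 with HDM201, and all treated libraries lay below all DMSO libraries. GABARAPL1 had 184, 187 and 198 CPM in IR_RG7388 and 175, 184 and 180.0 CPM in IR_HDM201 libraries, against 261, 245 and 238 CPM in IR_DMSO libraries. It changed by -0.39 ± 0.09 and -0.46 ± 0.09 and stayed well above its level in proliferating cells.

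Smaller changes were called with 1 compound. With RG7388, the V-ATPase subunit gene ATP6AP1 rose by 0.38 ± 0.12, TFE3 by 0.36 ± 0.10, WIPI1 by 0.38 ± 0.12 and ATG9A by 0.35 ± 0.12. Each of these 4 calls was lost in 2 to 5 of the 6 fits without 1 library, none remained without IR_RG7388 replicate 1, 1 remained without IR_DMSO replicate 1, and that of ATG9A became -0.035 in limma on log2(FPKM + 1). With HDM201, NPC2 rose by 0.31 ± 0.10, and NEU1 and PSAP changed by -0.36 ± 0.12 and -0.35 ± 0.11. These 3 calls were lost without IR_DMSO replicate 1, which left 5 members called, all lower. TFEB had 6.33, 6.81 and 5.50 CPM in IR_RG7388 and 6.64, 5.84 and 5.91 CPM in IR_HDM201 libraries, against 4.12, 4.97 and 4.88 CPM in IR_DMSO libraries. The groups did not overlap, but neither change was called (adjusted p = 0.0505 with RG7388 and 0.0627 with HDM201). LAMP1 and GLB1 were not called, nor was MAP1LC3B, with 227, 224 and 229 CPM in IR_RG7388 and 253, 246 and 234 CPM in IR_HDM201 libraries, against 237, 217 and 209 CPM in IR_DMSO libraries. FUCA1 had 4.17, 3.96 and 3.53 CPM in IR_RG7388 and 4.67, 3.03 and 4.00 CPM in IR_HDM201 libraries, against 4.04, 5.94 and 4.04 CPM in IR_DMSO libraries, which was not called either.

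Among the 135 further genes, 20 rose and 8 fell with RG7388 and 16 rose and 12 fell with HDM201 in irradiated cells. These are 14.8% and 5.93% of the list with RG7388, against 10.9% and 11.9% of all genes, and 11.9% and 8.89% with HDM201, against 9.96% and 11.3%. EPG5, which tethers autophagosomes to lysosomes, rose by 0.83 ± 0.11 with RG7388 and 0.60 ± 0.11 with HDM201. SORT1, the sorting receptor sortilin, rose by 0.67 ± 0.10 and MAP1LC3A, an LC3 protein, by 0.65 ± 0.12 with RG7388. SLC17A5 rose by 0.60 ± 0.11 and BNIP3, a receptor for the removal of mitochondria, by 0.46 ± 0.09 with HDM201. DRAM1, which irradiation had raised, changed by -0.85 ± 0.09 with RG7388 and -0.82 ± 0.09 with HDM201, and MANBA, the beta-mannosidase, by -0.47 ± 0.10 and -0.49 ± 0.10. ACP5, the tartrate-resistant acid phosphatase, changed by -2.52 ± 0.58 with RG7388, and TPCN1, an endolysosomal cation channel, by -0.71 ± 0.12 with HDM201.

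**Figure D3:**
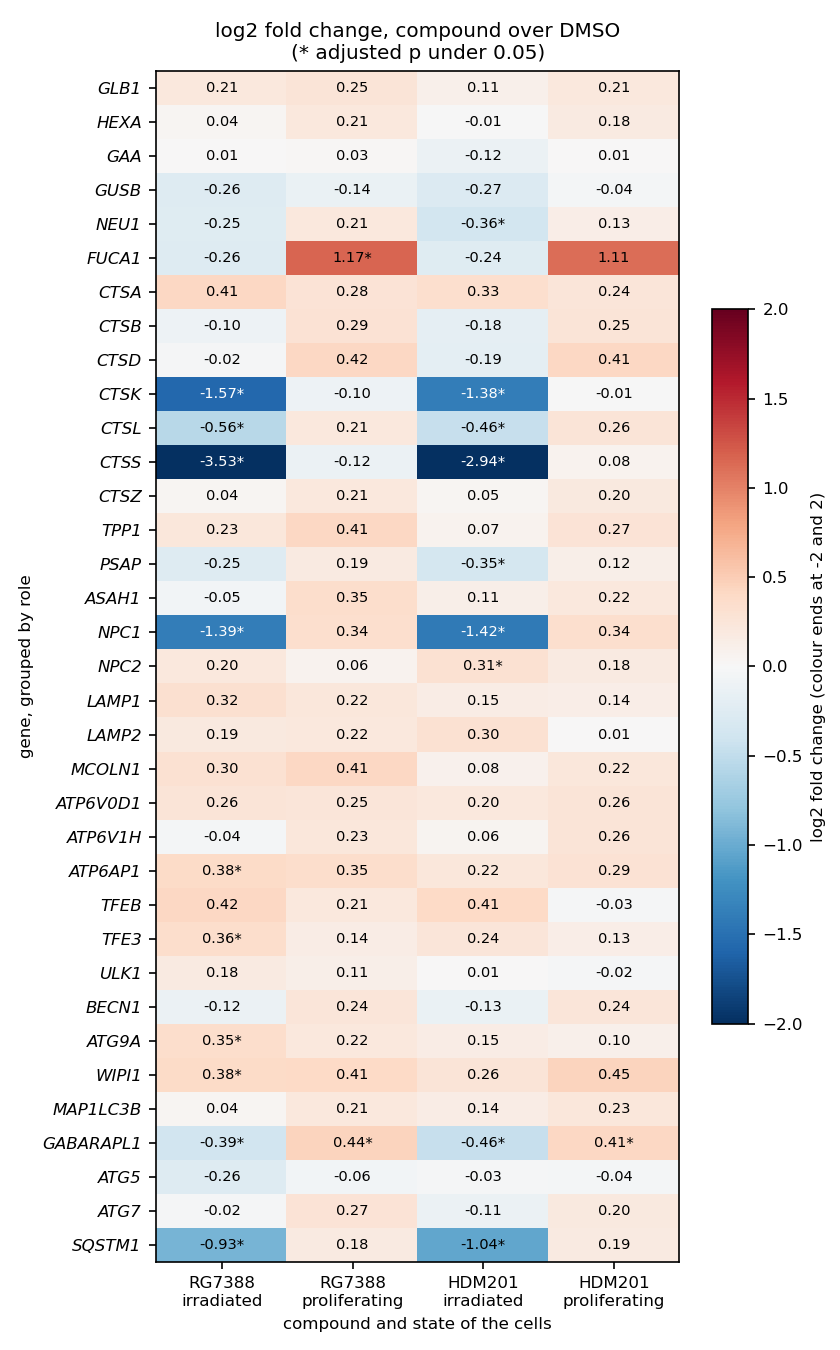
Log2 fold changes of RG7388 and HDM201 over DMSO in irradiated and in proliferating cells for the 35 members in order of their role, with an asterisk for an adjusted p under 0.05. The colour scale ends at -2 and 2. CTSK, CTSS, NPC1 and SQSTM1 are blue with an asterisk in the irradiated columns only, and FUCA1 is red in the proliferating columns only.

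In proliferating cells few members were called, although the estimates of 31 of 35 with RG7388 and 30 of 35 with HDM201 were above 0. Both compounds were set against the same Prolif_DMSO libraries. With RG7388, 2 members rose and none fell, against 1.2% and 0.342% of all genes. With HDM201, 1 rose and none fell, against 0.545% and 0.154%. At an unadjusted p under 0.05, edgeR gave 18 members higher and 0 lower with RG7388, against 7.61% and 5.46% of all genes, and 12 higher and 0 lower with HDM201, against 5.96% and 4.31%. DESeq2's Wald test called 5 members higher and 0 lower with RG7388, against 2.65% and 1.21% of the genes to which it gave an adjusted p, and 4 higher and 0 lower with HDM201, against 1.47% and 0.569%. FUCA1 had 1.53, 1.01 and 0.925 CPM in Prolif_RG7388 and 1.12, 1.03 and 1.13 CPM in Prolif_HDM201 libraries, against 0.417, 0.431 and 0.683 CPM in Prolif_DMSO libraries. All treated libraries were above the DMSO libraries, with log2 fold changes of 1.17 ± 0.29 with RG7388 (adjusted p = 0.0439) and 1.11 ± 0.29 with HDM201 (adjusted p = 0.0799, not called). GABARAPL1 had 97.6, 98.1 and 92.5 CPM in Prolif_RG7388 and 99.0, 102 and 81.4 CPM in Prolif_HDM201 libraries, against 69.1, 72.2 and 71.1 CPM in Prolif_DMSO libraries. It was called with both, at 0.44 ± 0.09 and 0.41 ± 0.09, and again no treated library reached down to the DMSO libraries. Each of these 3 calls was lost in 5 of the 6 fits without 1 library.

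The median log2 fold change of the members was 0.22 with RG7388 and 0.20 with HDM201, and that of all genes was -0.004 and 0.003. With RG7388, all treated libraries were above all DMSO libraries for 25 of 35 members, against 15.2% of all genes, and below them for 0 members, against 10.6%. With HDM201 this held for 7 members, against 6.34%, and for 0 members, against 6.66%. The fibroblast markers summed to 52061 to 57860 CPM in Prolif_RG7388 against 44381 to 50111 CPM in Prolif_DMSO libraries, and the epithelial markers to 325 to 353 against 277 to 295 CPM, and the part of these shifts in the members' values was not tested. Taken library by library against the Prolif_DMSO mean, the members' median log2 ratio was 0.21, 0.30 and 0.19 in Prolif_RG7388 and 0.30, 0.28 and -0.02 in Prolif_HDM201 libraries, against -0.04, 0.06 and -0.01 in Prolif_DMSO libraries. By this median alone Prolif_HDM201 replicate 3 lay with the DMSO libraries, although its CDKN1A, at 508 CPM, stood above their 222 to 246 CPM. Without Prolif_HDM201 replicate 3, 14 members were called higher with HDM201 and 0 lower, where 8.91% of all genes were called in either direction. Among these 14 were WIPI1, CTSD, GABARAPL1, NPC1 and GLB1, with log2 fold changes of 0.59, 0.57, 0.51, 0.45 and 0.35. Without that library and IR_DMSO replicate 1, 14 members were called higher with RG7388, where 7.83% of all genes were called, and 23 with HDM201, where 15.4% were. No member was called lower. Neither library belongs to the groups of the RG7388 comparison, but their removal changes the spread shared by all groups.

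**Figure D4:**
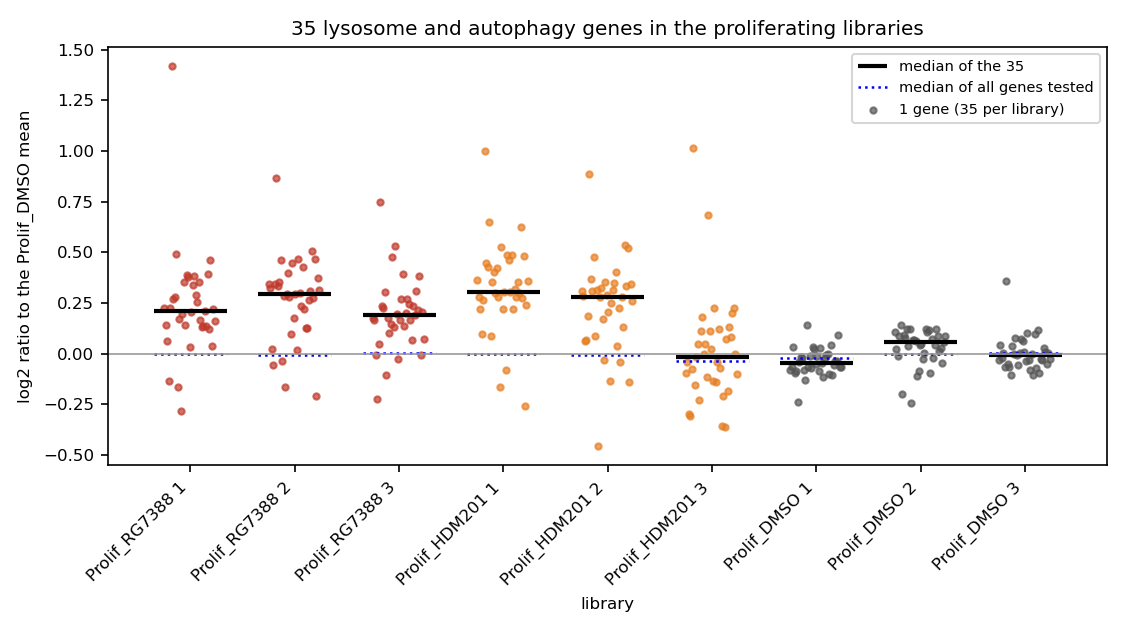
Log2 ratio of each member's CPM (plus 0.1) to its Prolif_DMSO mean in the 9 proliferating libraries. Points are genes, black lines the median of the 35 members and dotted lines the median of all genes tested. The black line stands between 0.19 and 0.30 in 5 of the 6 treated libraries and at -0.02 in Prolif_HDM201 replicate 3, while the dotted line stays near 0 throughout.

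Of the 135 further genes, 8 rose and 0 fell with RG7388 in proliferating cells, against 1.2% and 0.342% of all genes. At an unadjusted p under 0.05 in edgeR 33 were higher and 1 was lower, against 7.61% and 5.46% of all genes. TP53INP1 rose by 0.54 ± 0.11 and SESN1, a p53-induced inhibitor of mTORC1, by 0.55 ± 0.13. With HDM201 none was called, against 0.545% higher and 0.154% lower among all genes. In edgeR 24 were higher and 1 was lower at an unadjusted p under 0.05, against 5.96% and 4.31% of all genes.

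Whether a compound acted differently in the 2 states was tested by the interaction of compound and state, which also tests whether irradiation acted differently with the compound than with DMSO. For RG7388, 7 members had a lower effect in irradiated than in proliferating cells and 0 a higher one, against 5.27% and 2.2% of all genes. For HDM201, 8 had a lower and 0 a higher effect, against 5.67% and 2.97%. At an unadjusted p under 0.05 there were 12 lower and 0 higher for each compound in edgeR, against 11.6% and 7.82% of all genes for RG7388 and 12.6% and 9.24% for HDM201. DESeq2's Wald test called 7 lower and 0 higher for RG7388, against 6% and 3.39% of the genes to which it gave an adjusted p, and 12 lower and 0 higher for HDM201, against 6.34% and 4.55%. CTSS, NPC1, CTSK, FUCA1, SQSTM1, GABARAPL1 and CTSL were called for both compounds, and CTSD for HDM201. CTSS differed by -3.40 ± 0.39 with RG7388 and -3.01 ± 0.37 with HDM201 on the log2 scale, NPC1 by -1.73 ± 0.16 and -1.75 ± 0.16, and SQSTM1 by -1.12 ± 0.18 and -1.22 ± 0.18. The FUCA1 difference, at -1.43 ± 0.36 and -1.35 ± 0.36, had another make-up, since FUCA1 was not called in irradiated cells and was called higher in proliferating cells with RG7388. Without both libraries that stood apart, 10 members had a lower and 0 a higher effect for RG7388, and 16 a lower and 0 a higher effect for HDM201. These counts are given without the share of all genes in that fit, so they are not read as a result about the members. GABARAPL1 was called in opposite directions in the 2 states with each compound.

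The 7 members with CACGTG in their promoter windows were set beside the 20 whose windows lacked it. On irradiation in DMSO, 4 of the 7 rose (CTSD, ATP6V0D1, NEU1 and GAA) and 0 fell, with a median log2 fold change of 0.26. Of the 20, 11 rose and 4 fell, with a median of 0.35. Among all genes tested, 26.3% rose and 25.3% fell. The NEU1 and GAA calls were lost in 5 and 6 of the 6 fits without 1 library. The windows of FUCA1, NPC1, GABARAPL1, MAP1LC3B, SQSTM1 and WIPI1, which rose 2-fold or more, held no such letters. With RG7388 in irradiated cells none of the 7 was called, against 10.9% of all genes called higher and 11.9% lower. With HDM201 NEU1 was called lower, against 9.96% of all genes called higher and 11.3% lower.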

How the data were processed

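Poly(A) RNA libraries of 6 groups of 3 were grouped by their labels. The authors aligned reads to hg38 with STAR in its 2-pass mode, counted reads per gene with HTSeq and made FPKM with Cufflinks. For tool versions, annotation release and strand, the sources used here give nothing. The deposited counts were used as raw whole numbers. The deposited FPKM values were used for alternatives and for levels per length only, since 68911 of them were blank where counts were above 0 (none for the members). Counts were fitted in R 4.3.3 with edgeR 4.0.16: filterByExpr by group, TMM scaling, 1 mean per group over all 18 libraries (12 residual degrees of freedom), and the robust quasi-likelihood test, with a call at an adjusted p under 0.05. SE is the absolute log2 fold change over the root of the F statistic. Alternatives were DESeq2 1.42.0 size factors and Wald test, library totals, 2 other filters, a replicate block, a fit to the groups compared, limma 3.58.1 on log2 FPKM, an adjusted p under 0.01, each library left out, and both libraries that stood apart left out. Gene IDs matched GENCODE release 44 for 99.5% of the table and for all members. The 33 promoter windows of members were equal to the hg38 sequence. The members, the further list and the tests were chosen with earlier results of these data known. Per-library values are given for members called at a log2 fold change of 1 or more in either direction in any comparison of 2 groups and for GLB1, TFEB, LAMP1, MAP1LC3B and SQSTM1, smaller calls are named with their fold change, and from the further list up to 3 called genes per direction with the smallest p are named, except some that are not reported here.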

Additional observations from a re-analysis of the deposited data

Results flagged for a closer look

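For 7 members with RG7388 and 8 with HDM201, the compound's effect in irradiated cells differed from its effect in proliferating cells by the interaction test across all genes in edgeR, which is why they are listed here. Each value is the log2 fold change in irradiated cells minus that in proliferating cells, with its SE, and each was below 0. For RG7388 the differences were -3.40 ± 0.39 for CTSS (adjusted p = 1.8e-06), -1.73 ± 0.16 for NPC1 (adjusted p = 1.24e-07) and -1.47 ± 0.15 for CTSK (adjusted p = 4.88e-07). They were -1.43 ± 0.36 for FUCA1 (adjusted p = 0.0131), -1.12 ± 0.18 for SQSTM1 (adjusted p = 0.000141), -0.83 ± 0.13 for GABARAPL1 (adjusted p = 0.000118) and -0.77 ± 0.16 for CTSL (adjusted p = 0.00325).

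For HDM201 they were -3.01 ± 0.37 for CTSS (adjusted p = 6.09e-06), -1.75 ± 0.16 for NPC1 (adjusted p = 1.05e-07), -1.36 ± 0.15 for CTSK (adjusted p = 1.56e-06) and -1.35 ± 0.36 for FUCA1 (adjusted p = 0.0168). They were -1.22 ± 0.18 for SQSTM1 (adjusted p = 4.86e-05), -0.87 ± 0.13 for GABARAPL1 (adjusted p = 6.22e-05), -0.72 ± 0.16 for CTSL (adjusted p = 0.00576) and -0.60 ± 0.16 for CTSD (adjusted p = 0.0198). With 1 library left out, the FUCA1 call for RG7388 was lost without Prolif_DMSO replicate 1 or Prolif_RG7388 replicate 1, that for HDM201 without Prolif_DMSO replicate 1 or IR_DMSO replicate 2, and the CTSD call in 6 of 12 fits.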

How the results depend on the processing

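The number of members called stayed within 1.5 times its value for irradiation with DMSO (26), RG7388 (19) and HDM201 (19) in every setting tried, and with 1 library left out it ranged from 22 to 24, 15 to 16 and 15 to 20. For RG7388 in irradiated cells (10 called) it was 6 at an adjusted p under 0.01 and 6 to 12 with 1 library left out. For HDM201 in irradiated cells (9) it was 14 with library totals alone and in all 3 fits of limma on log2 FPKM, and 5 to 8 with 1 library left out. For RG7388 in proliferating cells (2) it was 8 in a fit to these groups only, 5 with DESeq2's Wald test, 14 without both libraries that stood apart, 1 in limma on filtered FPKM with a pseudocount of 1 or 0.1, 0 in limma without a filter and at an adjusted p under 0.01, and 0 to 1 with 1 library left out. For HDM201 in proliferating cells (1) it was 3 with library totals, 4 with DESeq2's Wald test, 23 without both libraries, 0 without a filter, in a fit to these groups only, in all limma fits and at an adjusted p under 0.01, and 0 to 14 with 1 library left out. For the RG7388 interaction (7) it was 13 with library totals, 11 in a fit to its groups only, 13 and 14 in limma on filtered FPKM with pseudocounts of 1 and 0.1, and 6 to 7 with 1 library left out. For the HDM201 interaction (8) it was 14 with library totals, 13 in limma with a pseudocount of 0.1, 16 without both libraries, and 6 to 13 with 1 library left out. The share of all genes called moved between settings as well, and most counts in this paragraph are given without it. For HDM201 in irradiated cells that share was 21.3% in the main fit and 23.8% with library totals. In the limma fits it was 18.2% to 21.5%. The cause of these shifts was not tested.

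A replicate block changed the count for RG7388 in proliferating cells, which became 1, and no other count by over 1.5 times. Replicate numbers did not pair the libraries: residuals of 9 of 45 same-number pairs correlated above 0.1, and 8 of 18 libraries had their best partner under their own number.

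Signs were followed for the members' calls, for GLB1 and LAMP1 on irradiation in DMSO, and for FUCA1 with HDM201 in proliferating cells, and turned for 3 genes. For irradiation in DMSO, GLB1 (-0.013) was 0.28 with library totals, 0.0097 without a filter, 0.60, 0.62 and 0.60 in limma on FPKM (pseudocount 1, pseudocount 0.1, no filter), 0.049 without both libraries, and -0.099 to 0.048 with 1 library left out. LAMP1 (-0.25) was 0.041 with library totals and 0.073, 0.074 and 0.073 in limma. ATG9A (-0.44) was 0.086, 0.089 and 0.086 in limma, and for RG7388 in irradiated cells its 0.35 became -0.035, -0.036 and -0.035 in limma. In every setting 19 of 26, 14 of 19 and 13 of 19 irradiation calls (DMSO, RG7388, HDM201) held, 5 of 10 and 5 of 9 compound calls in irradiated cells, none of those in proliferating cells, and 6 of 7 and 6 of 8 interactions.

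Library totals alone moved the median of all genes for irradiation in DMSO to 0.34, against 0.05 with TMM, and the share of called genes that were higher to 71.5%, against 51.0%. That share was 61.8% against 48.3% for irradiation with RG7388, 60.2% against 48.9% with HDM201, 20.2% against 48.0% for RG7388 and 22.5% against 46.8% for HDM201 in irradiated cells, 67.5% against 77.8% for RG7388 in proliferating cells, and 15.1% against 29.4% and 15.7% against 34.4% for the interactions. FUCA1, with under 1 CPM in Prolif_DMSO libraries, and CTSS, with 0.70 to 2.06 CPM in IR_RG7388 and IR_HDM201 libraries, rest on few counts.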
